A study of Mus musculus with 10 samples.

Results

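The genes described here are the messages for the subunits of oxidative phosphorylation, from both the mitochondrial and the nuclear genome. They were taken by symbol: protein-coding genes whose names begin with mt-Nd, mt-Co, mt-Cytb, mt-Atp, Ndufa, Ndufb, Ndufc, Ndufs, Ndufv, Uqcr, Cox4 to Cox8 or Atp5, together with Sdha, Sdhb, Sdhc, Sdhd and Cyc1. This gave 108 of the 21849 rows of the count table, under 107 distinct symbols. The mitochondrial genome encodes 13 of them and the nuclear genome 95. The nuclear rows were 7 core and 29 accessory subunits of complex I, 4 of complex II, 9 of complex III, 20 of complex IV and 18 of complex V. The symbol rule also took 8 Ndufaf genes, which encode assembly factors of complex I and not subunits, and these are kept apart below. The other nuclear rows are called subunits by symbol alone, Atp5s and Cox7a2l among them, and their place in a complex was not checked gene by gene.

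All libraries were made from total RNA of subcutaneous CT26 tumours, a mouse colon carcinoma line, in BALB/c mice aged 5 weeks. One diet lacked arginine and the other was a normal diet of the same energy content, and mice were put on it 1 week before tumour cells were injected. Tumours were taken at day 20. There were 5 arginine-deficient and 5 normal-diet libraries, and the question of the design is which messages differ between tumours of the 2 diets.

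Complexes I to IV pass electrons from NADH and succinate to oxygen. Complexes I, III and IV pump protons across the inner mitochondrial membrane as they do so, and complex V uses the proton gradient to make ATP. Complexes I, III, IV and V are mosaics: their most hydrophobic subunits are translated inside the mitochondrion from mitochondrial DNA, and the others are imported from the cytosol. Complex II is encoded by the nucleus alone. Mitochondrial DNA is transcribed as long polycistronic RNAs that are cut into single messages, so levels of single mitochondrial messages reflect both synthesis and decay. In tumours the pathway supplies ATP and regenerates the electron acceptors that nucleotide and aspartate synthesis need.

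Library totals ran from 12013178 to 31530123 counts, and levels are given as CPM, the counts scaled to a common library size after TMM normalization, unless another scale is named. Of the 12929 genes with enough counts to be tested, 7 passed the test of diet (edgeR quasi-likelihood test, Benjamini-Hochberg adjusted p under 0.05), all of them higher on the arginine-deficient diet. The libraries were not alike in tissue. The markers of skeletal muscle, of which 19 of 20 were detected and Acta1 was listed at 0, were most abundant in arginine-deficient replicates 3 and 4, where they summed to 7909 and 2096 CPM. They reached 713 and 94.4 CPM in normal-diet replicates 4 and 3 and 8.41 to 19.1 CPM in the others. Fibroblast markers summed to 523 to 923 CPM, leukocyte markers to 270 to 415 CPM and epithelial markers to 8.30 to 24.5 CPM over all libraries, with Epcam at 0.00 to 0.486 CPM. Erythroid markers summed to 315 CPM in normal-diet replicate 1 and 283 CPM in normal-diet replicate 5, against 30.4 to 104 CPM elsewhere. Both were lower on the arginine-deficient diet. The log2 fold changes were -1.86 ± 0.47 for Hbb-bs and -1.65 ± 0.48 for Hba-a1 (SE, edgeR adjusted p = 0.281 and 0.390). Hbb-bs did not overlap between the diets (1.65% of all tested genes). Its highest arginine-deficient value was 34.6 CPM and its lowest normal-diet value 36.9 CPM. DESeq2 called it (1.01% of all tested genes), but edgeR (0.0541%) and limma voom with sample weights (2.88%) did not. In such bulk samples, fewer cells of a type and less RNA per cell cannot be told apart.

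Of the 108 rows, 100 passed the filter on low counts: all 13 mitochondrially encoded genes, 79 nuclear subunits and the 8 assembly factors. Listed at 0 in every library were 5 members, Cox4i1, Cox6a2, Ndufa13, Cox7b2 and Cox8c. The first 3 have all of their exonic bases (100%) inside the bodies of other annotated genes, so their 0 does not show that the messages were absent. Cox4i1, the common form of the largest nuclear subunit of complex IV, lies inside Gm20388, and that gene carried 1306 to 2727 counts per library. The rows of Cox6b2, Cox8b and a second, overlapping Atp5o identifier had counts but too few for the test. Ndufb8 (64.6%) and Ndufb9 (69.0%) were tested although most of their exonic bases lie inside the bodies of Gm20538 and Gm49356.

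The diet comparison called 0 of the 100 tested members, against a background of 0.0541% of all tested genes. By the same edgeR test 0 of 100 had an unadjusted p under 0.05 (6.74% of all tested genes, 3.54% on the higher and 3.19% on the lower side), and for 0 of 100 did the values of the diets not overlap (1.65% of all tested genes). DESeq2 also called 0 members (1.01% of all genes) with 1 at an unadjusted p under 0.05 (8.07% of all genes). Limma voom with sample weights called 0 members (2.88% of all genes), with 3 at an unadjusted p under 0.05 (20.0% of all genes). The smallest adjusted p of any member was 0.760, for Sdha. The sign of the fold change was positive, higher on the arginine-deficient diet, for 37 of the 100 members and for 50.3% of all tested genes. All 13 mitochondrially encoded members were on the positive side, with a median log2 fold change of 0.57, whereas 58 of the 79 nuclear subunits were on the negative side, with a median of -0.09 beside 0.00 for all tested genes. The mitochondrially encoded fold changes had a median standard error of 0.59. Neither side held without 1 particular library, as given below. With each library left out in turn, the mitochondrially encoded median turned negative only without arginine-deficient replicate 3. The nuclear median turned positive only without normal-diet replicate 5. Some of the other alternatives also turned a median.

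**Figure D1:**
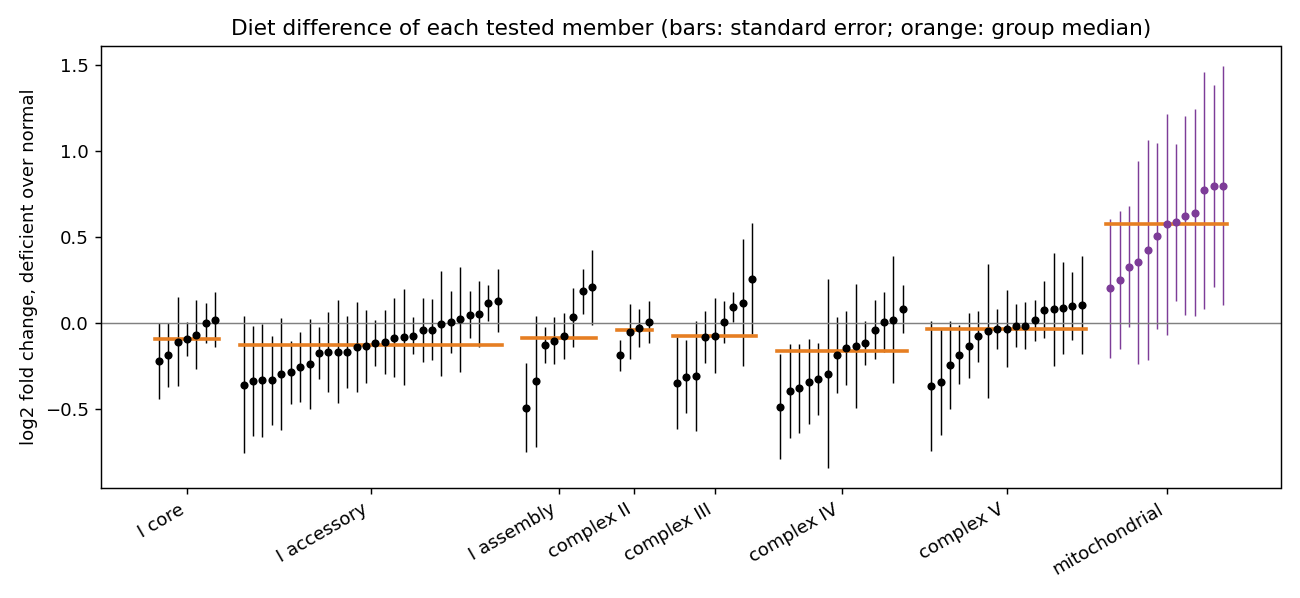
Log2 fold change of the 100 tested members, arginine-deficient over normal diet, ordered within each group. Points are members, bars are standard errors derived from the edgeR test statistic and orange lines are group medians. The mitochondrially encoded genes all sit above 0, between 0.20 and 0.80, with wide bars, and the nuclear groups have medians between -0.17 and -0.04.

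Mitochondrially encoded messages together took 1.67%, 2.50%, 9.97%, 2.40% and 2.92% of counts in arginine-deficient replicates 1 to 5. The normal-diet libraries gave 2.27%, 4.44%, 2.69%, 4.27% and 1.72%, in the same order of replicate number. Arginine-deficient replicate 3 stood above every other library, and the other 4 of its diet lay within or just below the normal-diet range. That library was the highest of the 10 for 13 of 13 mitochondrially encoded genes and for 24.9% of all tested genes. Arginine-deficient replicate 1 was the lowest for 9 of them (8% of all tested genes) and normal-diet replicate 5 for the other 4 (21.2% of all tested genes).

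Among the complex I messages of the mitochondrial genome, which encode the proton-pumping membrane arm, mt-Nd1 (chrM:2751-3707) was at 417, 1453, 9675, 1711 and 1975 CPM in arginine-deficient replicates 1 to 5. In normal-diet replicates 1 to 5 it was at 1355, 2991, 1912, 2760 and 1217 CPM. The arginine-deficient diet thus held both the highest and the lowest mt-Nd1 level, and the diets overlapped. Its log2 fold change was 0.57 ± 0.64 (SE, edgeR adjusted p = 0.978) and -0.55 without arginine-deficient replicate 3. The largest fold change of the 13 was that of mt-Nd6, the only one of these messages read from the other strand of the mitochondrial genome (chrM:13552-14070). It was at 60.2, 341, 2233, 364 and 433 CPM on the arginine-deficient diet and at 248, 627, 313, 538 and 248 CPM on the normal diet, in replicate order. The mt-Nd6 fold change of 0.80 ± 0.70 (SE, edgeR adjusted p = 0.960) became -0.39 without arginine-deficient replicate 3. For mt-Nd2, mt-Nd3, mt-Nd4, mt-Nd4l and mt-Nd5 the fold changes lay between 0.42 and 0.77, and without that library between -0.59 and -0.17.

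Cytochrome b, the mitochondrially encoded catalytic subunit of complex III, was read from mt-Cytb (chrM:14145-15288). Its message was at 3340, 3415, 15252, 3369 and 4158 CPM in arginine-deficient replicates 1 to 5 and at 2771, 5841, 3075, 5493 and 2528 CPM in normal-diet replicates 1 to 5. All 5 arginine-deficient libraries were above the normal-diet median of 3075 CPM, yet normal-diet replicates 2 and 4 were above 4 of the 5. The fold change was 0.58 ± 0.46 (SE, edgeR adjusted p = 0.944), and -0.14 without arginine-deficient replicate 3.

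Complex IV takes its catalytic core from the mitochondrial genome. The message of mt-Co1, whose protein holds the site where oxygen is reduced, was at 7837, 10833, 31917, 8546 and 10974 CPM on the arginine-deficient diet and at 9587, 16519, 11125, 17241 and 6572 CPM on the normal diet. Apart from the 31917 CPM of arginine-deficient replicate 3, the 4 other libraries of that diet lay inside the normal-diet range. mt-Co1 had the smallest fold change of the 13, 0.20 ± 0.41 (SE, edgeR adjusted p = 0.998). mt-Co2, which receives electrons from cytochrome c, and mt-Co3 had fold changes of 0.25 and 0.33. Without arginine-deficient replicate 3 the 3 values were -0.35, -0.31 and -0.19.

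The complex V messages mt-Atp8 and mt-Atp6, for membrane subunits of the proton channel, overlap in the genome. Their overlap covers 43 bases, 21.1% of mt-Atp8, and mt-Nd4l and mt-Nd4 on the same strand overlap by 7 bases. The ends of mt-Nd5 and mt-Nd6 also overlap, on opposite strands, and mt-Atp6 meets mt-Co3 in 1 base. The labels do not say how reads on such bases were counted. The first 2 stretches are shown because a read on them fits both messages; the shared bases are in capitals, read 5′ to 3′ on the plus strand of mm10, from chrM:7915-7981 and chrM:10155-10185, with coordinates of GENCODE M21.
mt-Atp8 and mt-Atp6: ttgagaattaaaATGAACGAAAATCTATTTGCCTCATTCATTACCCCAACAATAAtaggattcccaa
mt-Nd4l and mt-Nd4: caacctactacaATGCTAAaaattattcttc

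Levels of mt-Atp6 were 351, 1784, 6979, 1496 and 2169 CPM on the arginine-deficient diet and 1614, 2879, 1875, 2760 and 892 CPM on the normal diet. mt-Atp8 was at 14.7, 36.1, 214, 99.4 and 26.8 CPM and at 32.7, 52.4, 30.7, 50.6 and 59.2 CPM. The 2 messages were not ordered alike over the libraries: in normal-diet replicate 5, mt-Atp6 was the lowest of its diet and mt-Atp8 the highest. The fold changes were 0.35 ± 0.59 for mt-Atp6 and 0.80 ± 0.59 for mt-Atp8 (SE, edgeR adjusted p = 0.998 and 0.939), and -0.46 and -0.02 without arginine-deficient replicate 3.

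**Figure D2:**
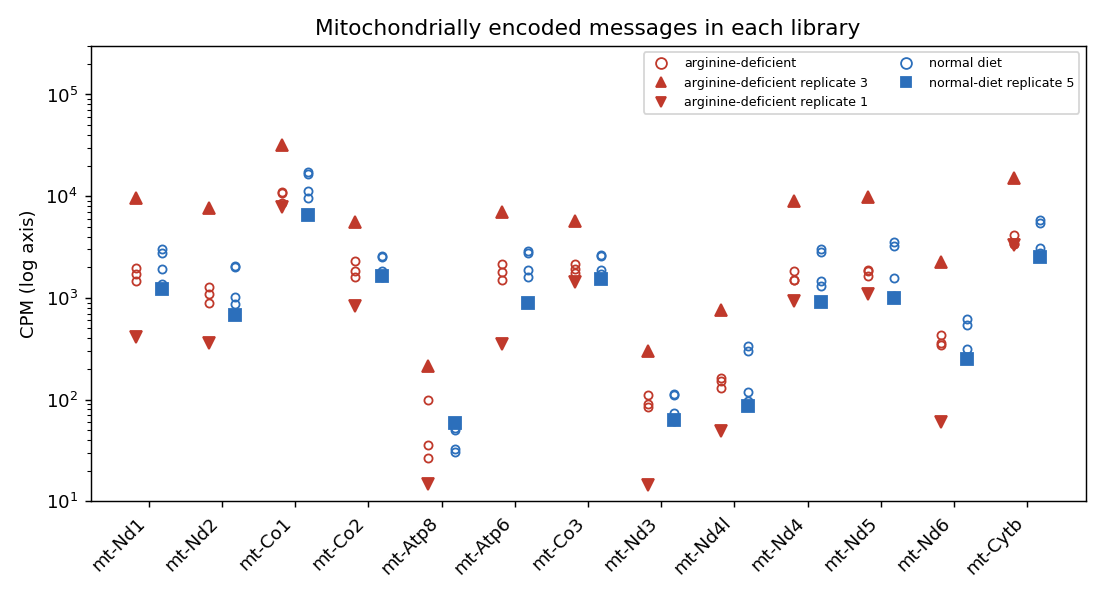
CPM (log axis) of the 13 mitochondrially encoded messages in each library, arginine-deficient in red and normal diet in blue; the filled upward triangle is arginine-deficient replicate 3, the filled downward triangle arginine-deficient replicate 1 and the square normal-diet replicate 5. The upward triangle is the top point of every gene (31917 CPM for mt-Co1), and the other libraries of both diets overlap.

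The make-up of the mitochondrially encoded pool also differed between libraries. Per kilobase of message and averaged over the 10 libraries, mt-Co1 was the most abundant (8489 CPM per kb), followed by mt-Cytb (4304), mt-Atp6 (3348) and mt-Co2 (3249). The least abundant were mt-Nd3 (293) and mt-Atp8 (302). Their order depended on the average: per length and relative to mt-Co1 in each library, the medians were 0.0320 for mt-Nd3 and 0.0246 for mt-Atp8. In arginine-deficient replicate 1 several messages lay outside the range of all other libraries. mt-Nd1 made up 2.49% of its mitochondrially encoded counts, against 5.61% to 9.22% in the other 9 libraries. Its share of mt-Atp6 was 2.10% against 5.12% to 7.38%, that of mt-Nd3 0.0858% against 0.255% to 0.387%, and that of mt-Nd6 0.360% against 1.11% to 2.13%. Its shares of mt-Co1 (46.9%) and mt-Cytb (20.0%) were in turn the highest of the 10 libraries. In arginine-deficient replicate 3 mt-Co1 made up 30.4%, the lowest share of the 10, and mt-Nd1 9.22%, the highest. The 2 libraries at the ends of the mitochondrially encoded range thus differed in make-up as well as in total.

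Skeletal muscle is rich in mitochondria, and the library with the highest mitochondrially encoded share was also the one with most muscle marker counts. Cox8b (chr7:140898945-140900446), the heart and skeletal muscle form of a small subunit of complex IV, had its counts mainly there too. It had 220 counts in arginine-deficient replicate 3 and 36 in arginine-deficient replicate 4, and 0 to 4 counts in each of the other 8 libraries, where 3 counts correspond to 0.0951 to 0.25 CPM of the unscaled library total. It was therefore near its floor except in the 2 libraries richest in muscle. Cox7a1, the muscle form of another small subunit, was at 2.80 and 1.17 CPM in the same libraries, but normal-diet replicate 5 reached 2.94 CPM, whose muscle markers summed to 14.8 CPM. The muscle markers and the mitochondrially encoded share went together in some libraries and not in others. Normal-diet replicate 4 had 713 CPM of muscle markers and 4.27% mitochondrially encoded counts. Arginine-deficient replicate 4 had 2096 CPM and 2.40%, and normal-diet replicate 2 had 19.1 CPM and 4.44%. Each gene's log2 CPM was also taken as the deviation from its mean over the 10 libraries. In each library these deviations were fitted on transcript GC content together with gene length. The GC slope, per 10 percentage points, was lowest in arginine-deficient replicate 3 (-0.523), followed by normal-diet replicates 2 (-0.331) and 4 (-0.234). Those 2 normal-diet libraries had the next highest mitochondrially encoded shares. The brown fat markers Ucp1 and Cidea together reached at most 0.291 CPM in any library. Leaving out the 3 libraries richest in muscle transcripts put 1 of 13 mitochondrially encoded genes on the positive side, with a median of -0.22, and 0 of 100 members were called (0.139% of all genes). The part of muscle and of GC content in the mitochondrially encoded levels was not tested beyond these values.

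**Figure D3:**
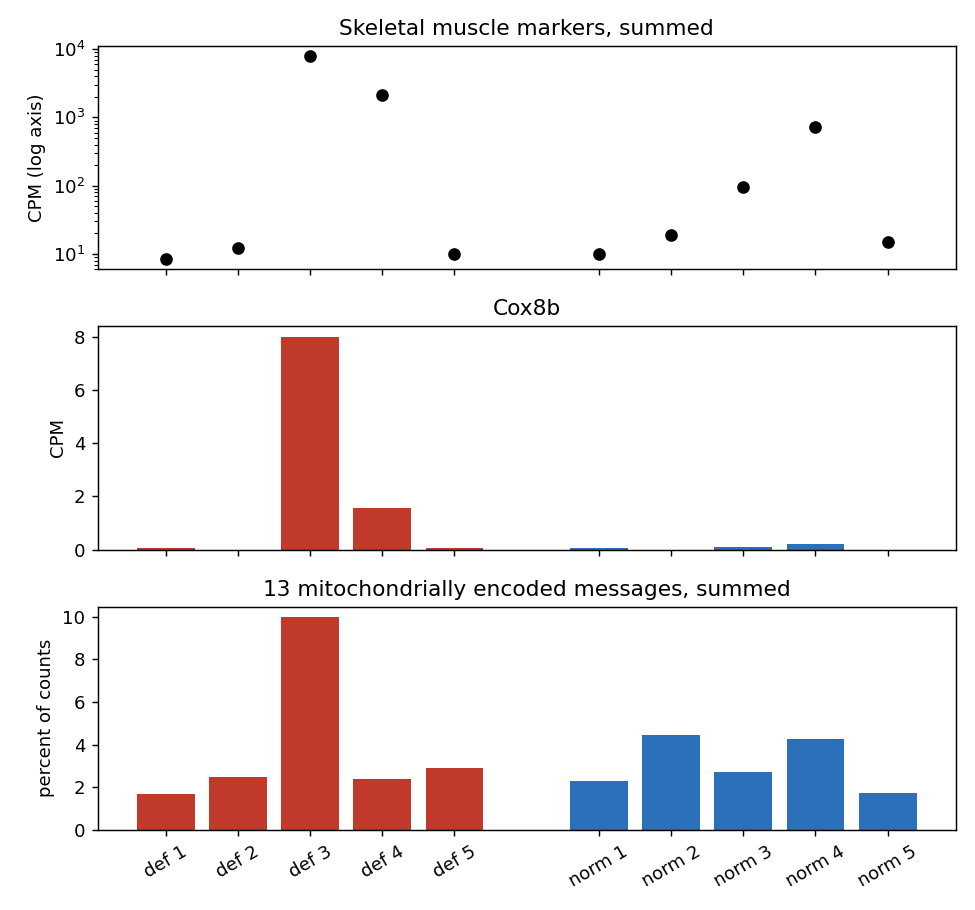
Sum of 20 skeletal muscle markers (CPM, log axis), CPM of Cox8b and percent of counts from the 13 mitochondrially encoded messages in each library (def: arginine-deficient, red; norm: normal diet, blue). Arginine-deficient replicate 3 is the highest in all 3 panels, while arginine-deficient replicate 4, second in muscle markers (2096 CPM) and in Cox8b, had 2.40% mitochondrially encoded counts.

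The nuclear subunits took far less of the libraries: 0.573% to 0.654% of counts on the arginine-deficient diet and 0.559% to 0.653% in normal-diet replicates 1 to 4, with 0.929% in normal-diet replicate 5. The ratio of mitochondrially encoded counts to counts of the 87 nuclear subunits ran from 1.86 in normal-diet replicate 5 to 17.4 in arginine-deficient replicate 3, and from 2.73 to 7.93 in the other 8 libraries. Per kilobase of exon the tested nuclear members ranged from 1.24 CPM per kb (Atp5g1) to 308 (Atp5b), and the mitochondrially encoded from 293 to 8489. With the longest transcript as length Atp5b was at 681 CPM per kb, and by either length it was the highest nuclear member and lay among the least abundant mitochondrially encoded messages. Atp5b, the catalytic beta subunit of complex V and named here for its level, was at 1350, 1331, 1059, 1403 and 1342 CPM on the arginine-deficient diet and at 1329, 1147, 1248, 1180 and 1660 CPM on the normal diet.

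Complex I is the entry point for electrons from NADH. Of its 7 nuclear core subunits, which carry the flavin and the iron-sulfur clusters, 1 had a positive and 6 a negative fold change (median -0.10). Ndufs7, which carries an iron-sulfur cluster, was at 37.8, 44.9, 39.7, 52.8 and 45.6 CPM on the arginine-deficient diet. On the normal diet it ran from 36.5 CPM in replicate 2 to 85.5 CPM in replicate 5, with 54.2 CPM in replicate 1 and 37.1 CPM in replicate 4, so the diets overlapped and normal-diet replicate 5 was the highest library. The fold change of Ndufs7 was -0.22 ± 0.22 (SE, edgeR adjusted p = 0.974), and 0.03 without that library. Ndufv2, of the NADH-oxidising module, was the one core subunit on the positive side at 0.02 ± 0.16, with 119 CPM in arginine-deficient replicate 3 against 67.4 to 89.2 CPM in the other 9 libraries.

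The accessory subunits surround the core and stabilise it. Of 28 tested, 6 were on the positive and 22 on the negative side (median -0.13). Ndufb3 (chr1:58586384-58595964), a small membrane-arm subunit, was at 29.1, 33.5, 37.1, 35.9 and 28.0 CPM on the arginine-deficient diet. Its normal-diet values were 35.3, 34.9, 32.7, 34.8 and 62.3 CPM, so that 4 of them lay within the arginine-deficient range and normal-diet replicate 5 far above it. The fold change of Ndufb3 was -0.29 ± 0.18 (SE, edgeR adjusted p = 0.890) and -0.07 without that library. Ndufb9, whose exons overlap Gm49356 as given above, went from -0.33 to -0.08 in the same way. On the positive side were Ndufa10 at 0.11 ± 0.11 and Ndufc1 at 0.13 ± 0.18, and the Ndufc1 value was -0.02 without arginine-deficient replicate 3, its highest library at 16.1 CPM.

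The 8 assembly factors, which build complex I and leave it when it is complete, had a median of -0.09, with 3 on the positive side. Ndufaf3 (chr9:108565537-108567434), which acts together with Ndufaf4 early in assembly, had the most negative fold change of any tested member. It was at 4.63, 5.03, 3.82, 5.74 and 4.47 CPM on the arginine-deficient diet and at 7.66, 4.21, 5.79, 4.91 and 11.02 CPM on the normal diet. All 5 arginine-deficient values were below the normal-diet median of 5.79 CPM, but they overlapped 2 of the normal-diet libraries. The fold change was -0.49 ± 0.26 (SE, edgeR adjusted p = 0.814) and -0.25 without normal-diet replicate 5. Its partner Ndufaf4 had 0.20 ± 0.22, and -0.01 without arginine-deficient replicate 3, where it was at 42.4 CPM against 17.9 to 28.0 CPM elsewhere. Ndufaf7, a mitochondrial methyltransferase, had -0.13 ± 0.10, and Ndufaf1 had 0.18 ± 0.13.

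Complex II is the succinate dehydrogenase shared with the tricarboxylic acid cycle. Sdha (chr13:74322254-74350280), its flavoprotein, was at 216, 223, 221, 238 and 208 CPM in arginine-deficient replicates 1 to 5, and at 251, 236, 255, 237 and 284 CPM in normal-diet replicates 1 to 5. All 5 arginine-deficient values were below the normal-diet median of 251 CPM, and only arginine-deficient replicate 4 reached into the normal-diet range. The means were 221 ± 10.8 CPM and 252 ± 19.7 CPM (SD, n = 5 each). The fold change was -0.19 ± 0.09 (SE, edgeR adjusted p = 0.760), the smallest standard error relative to its size among the members. Without normal-diet replicate 5 it was -0.15, and without the 3 libraries richest in muscle it was -0.24. The iron-sulfur subunit Sdhb and the membrane anchors Sdhc and Sdhd had fold changes of -0.05 ± 0.16, -0.03 ± 0.11 and 0.00 ± 0.12. Sdhb became 0.12 without normal-diet replicate 5, where it was at 129 CPM against 70.5 to 93.9 CPM elsewhere.

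Complex III hands electrons from ubiquinol to cytochrome c. Of its 9 nuclear subunits, 4 were on the positive and 5 on the negative side (median -0.07). Uqcr10, a small subunit, was at 31.3, 28.8, 31.5, 34.7 and 30.1 CPM on the arginine-deficient diet and at 34.9, 25.7, 32.0, 28.8 and 78.7 CPM on the normal diet. The 4 other normal-diet libraries enclosed the whole arginine-deficient range, and normal-diet replicate 5 stood far above them. Its fold change was -0.35 ± 0.27 (SE, edgeR adjusted p = 0.943), and 0.04 without that library. The hinge protein Uqcrh was at -0.31 ± 0.21, and -0.07 without it. Uqcrb, which lies at the ubiquinone-binding site, had 0.25 ± 0.32. Its level was 54.8 CPM in arginine-deficient replicate 3, followed by normal-diet replicate 5 with 34.7 CPM, against 16.9 to 28.1 CPM elsewhere. Without arginine-deficient replicate 3 the Uqcrb value was -0.16, and without normal-diet replicate 5 it was 0.44. The core protein Uqcrc2 varied least of the complex, between 126 and 154 CPM over the 10 libraries, with a fold change of 0.09 ± 0.09.

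Complex IV has several subunits with a common and a tissue-restricted form. Of 14 tested nuclear members assigned to it, 3 were on the positive and 11 on the negative side (median -0.17, the lowest of the nuclear groups). Cox6a1 (chr5:115345642-115348981), the form of most tissues, was at 115, 136, 94.1, 138 and 135 CPM on the arginine-deficient diet and at 158, 99.1, 145, 106 and 305 CPM on the normal diet. All 5 arginine-deficient values were below the normal-diet median of 145 CPM, and 2 normal-diet libraries lay among them. The fold change of -0.40 ± 0.27 (SE, edgeR adjusted p = 0.911) was -0.04 without normal-diet replicate 5. The common forms Cox6b1, Cox7a2 and Cox8a had -0.33 ± 0.21, -0.34 ± 0.25 and -0.19 ± 0.22, and without that library -0.06, 0.01 and 0.09. Cox7b had 0.00 ± 0.18.

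Of the restricted forms, Cox7a1 (0.479 to 2.94 CPM) had -0.30 ± 0.55 and Cox4i2 (1.25 to 2.81 CPM), a form found in lung and linked to low oxygen, -0.38 ± 0.26. Cox4i2 was not high in normal-diet replicate 5, at 1.35 CPM, and its value without that library was -0.48. The hypoxia-inducible Ndufa4l2 was at 2.96 to 5.69 CPM on the arginine-deficient diet and at 3.60 to 11.1 CPM on the normal diet, with -0.49 ± 0.30 (SE, edgeR adjusted p = 0.881), and -0.17 without normal-diet replicate 5. Its common relative Ndufa4, now placed in complex IV, had -0.04 ± 0.17. The testis form Cox6b2 had at most 0.841 CPM in any library. Cox5a and Cox5b, on the matrix side of the complex, were on the positive side with 0.08 ± 0.14 and 0.02 ± 0.37. Cox5b (chr1:36691449-36693681) was high in 3 libraries of both diets, 33.4 and 35.1 CPM in arginine-deficient replicates 1 and 3 and 54.8 CPM in normal-diet replicate 5, against 16.6 to 19.0 CPM in the other 7.

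Complex V joins a proton-driven rotor to the ATP-making head. Of 17 tested nuclear members, 6 were on the positive and 11 on the negative side (median -0.04). Atp5e, the epsilon subunit of the central stalk, was at 51.9, 54.9, 46.6, 59.9 and 39.7 CPM on the arginine-deficient diet and at 59.0, 37.0, 50.7, 41.0 and 134 CPM on the normal diet. Except for normal-diet replicate 5 the diets covered about the same range, and the fold change of -0.34 ± 0.31 (SE, edgeR adjusted p = 0.967) was 0.11 without that library. Atp5j2, a membrane subunit, went from -0.19 ± 0.17 to 0.02. Atp5f1, of the peripheral stalk, was instead high in arginine-deficient replicate 3, at 269 CPM against 151 to 192 CPM elsewhere, and its 0.08 ± 0.16 became -0.12 without that library. Atp5g2, 1 of 3 genes for the rotor ring, had 0.10 ± 0.20.

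The nuclear subunits thus shared a feature that did not follow the diet. Normal-diet replicate 5 was the highest of the 10 libraries for 62 of the 79 tested nuclear subunits (78.5%), against 2866 of the 12929 tested genes (22.2%), and the lowest for 0 of 79, against 21.2% of all genes. Taken as the median of log2 CPM minus each gene's median over the libraries, that library stood at 1.02 for complex IV, 0.81 for complex III, 0.79 for the accessory and 0.53 for the core subunits of complex I, 0.42 for complex V and 0.36 for complex II. The mitochondrially encoded genes stood at -0.57 in the same library. Normal-diet replicate 2 was the lowest library for 24 of the 79 nuclear subunits (30.4%), against 8.9% of all tested genes, and their median on this scale was -0.19 there. That library was likewise the lowest for 22 of 72 genes of the mitochondrial ribosome (30.6%), with a median of -0.17. For the cytosolic ribosomal proteins it was the lowest for 6 of 76 (7.9%). In normal-diet replicate 5 the short messages stood out most: it was the highest library for 23 of the 25 nuclear subunits with fewer than 1200 exonic bases (92%) and for 12 of the 22 with 2500 or more (54.5%). Over all tested genes with fewer than 1200 exonic bases this library was the highest for 236 of 483 (48.9%). Cytosolic ribosomal proteins, which are also short abundant messages, stood at 1.32 in normal-diet replicate 5, the mitochondrial ribosome at 0.32 and the tricarboxylic acid cycle at 0.02. That library was the highest for 61 of 76 cytosolic ribosomal proteins (80.3%) and 44 of 72 genes of the mitochondrial ribosome (61.1%). For the tricarboxylic acid cycle it was the highest for 4 of 16 (25%). Being high there was thus not particular to the nuclear subunits. The library also had the highest GC slope (0.368). In a separate fit of the same deviations it had the lowest slope on log2 exon length (-0.148). Its Gapdh was at 137 CPM of the unscaled library total, against 51.1 to 115 CPM in all but arginine-deficient replicate 1 (155 CPM). In arginine-deficient replicate 1 the cytosolic ribosomal proteins stood at 0.92 while complex IV stood at 0.01. The part of message length and GC content in these levels was not tested beyond these values.

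**Figure D4:**
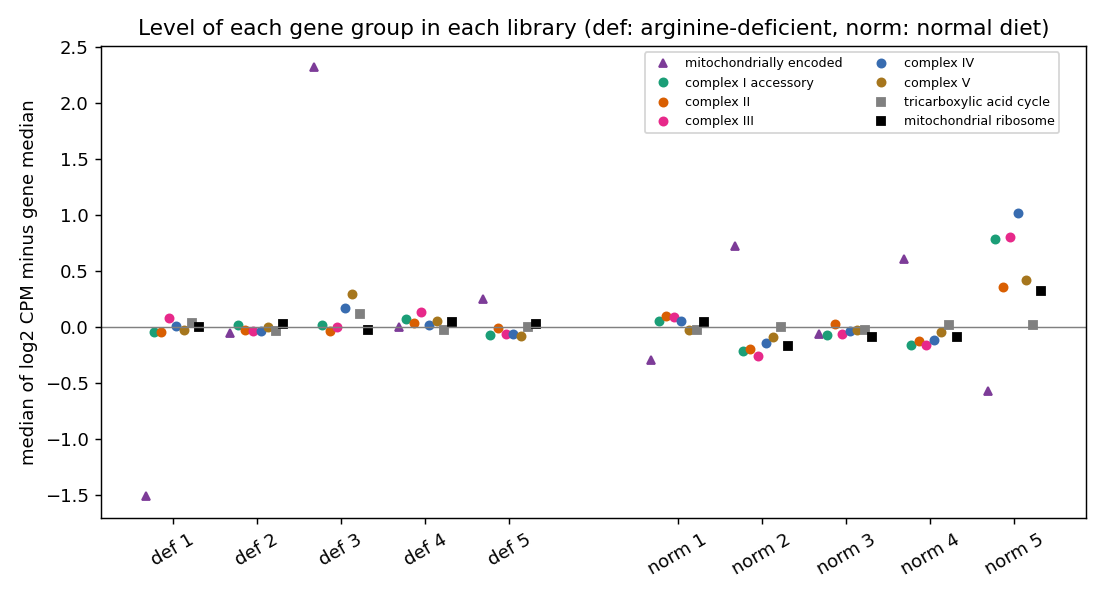
Median over the genes of each group of log2 CPM minus the gene's median over the 10 libraries, by library (def: arginine-deficient, norm: normal diet). The plotted nuclear complexes lie between -0.26 and 0.30 except in normal-diet replicate 5, where they lie between 0.36 and 1.02, and the mitochondrially encoded genes range from -1.51 in arginine-deficient replicate 1 to 2.32 in arginine-deficient replicate 3.

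These single libraries were part of the spread within each diet. Leaving out a library picked for standing apart lowers the SD by itself, so the drop has no meaning of its own. The median SD of log2 CPM of the nuclear subunits was 0.421 on the normal diet and 0.206 on the arginine-deficient diet, and 0.169 on the normal diet without replicate 5. For the mitochondrially encoded genes it was 1.41 on the arginine-deficient diet and 0.585 on the normal diet, and 0.80 on the arginine-deficient diet without replicate 3. Over all tested genes the spread also became smaller, from 0.277 to 0.22 on the normal diet without replicate 5 and from 0.29 to 0.19 on the arginine-deficient diet without replicate 3.

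The direction of the group medians turned with the same libraries. Without normal-diet replicate 5, 63 of the 79 nuclear subunits were on the positive side with a median of 0.10, and without arginine-deficient replicate 3, 11 of 79 with a median of -0.13. Without arginine-deficient replicate 3, 0 of 13 mitochondrially encoded genes were on the positive side, with a median of -0.37. The difference between the 2 genomes seen with all libraries, 0.57 beside -0.09, was therefore -0.37 beside -0.13 without arginine-deficient replicate 3 and 0.42 beside 0.10 without normal-diet replicate 5. With each library's slopes on GC content and gene length as covariates, 12 of 13 mitochondrially encoded genes were positive with a median of 0.16, the nuclear median was -0.08, and 0 members were called (0.526% of all genes), with 7 of 100 at an unadjusted p under 0.05 beside 16.0% of all genes. With voom sample weights, 3 of 13 mitochondrially encoded genes were positive with a median of -0.11, and 42 of 79 nuclear subunits with a median of 0.01. Without the 3 libraries richest in muscle the nuclear median was -0.20 (7 of 79 positive) and the mitochondrially encoded median -0.22 (1 of 13). Without the 2 with most Gapdh these medians were 0.10 (59 of 79) and 0.66 (13 of 13). No member passed the adjusted threshold under any of the alternatives run.

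**Figure D5:**
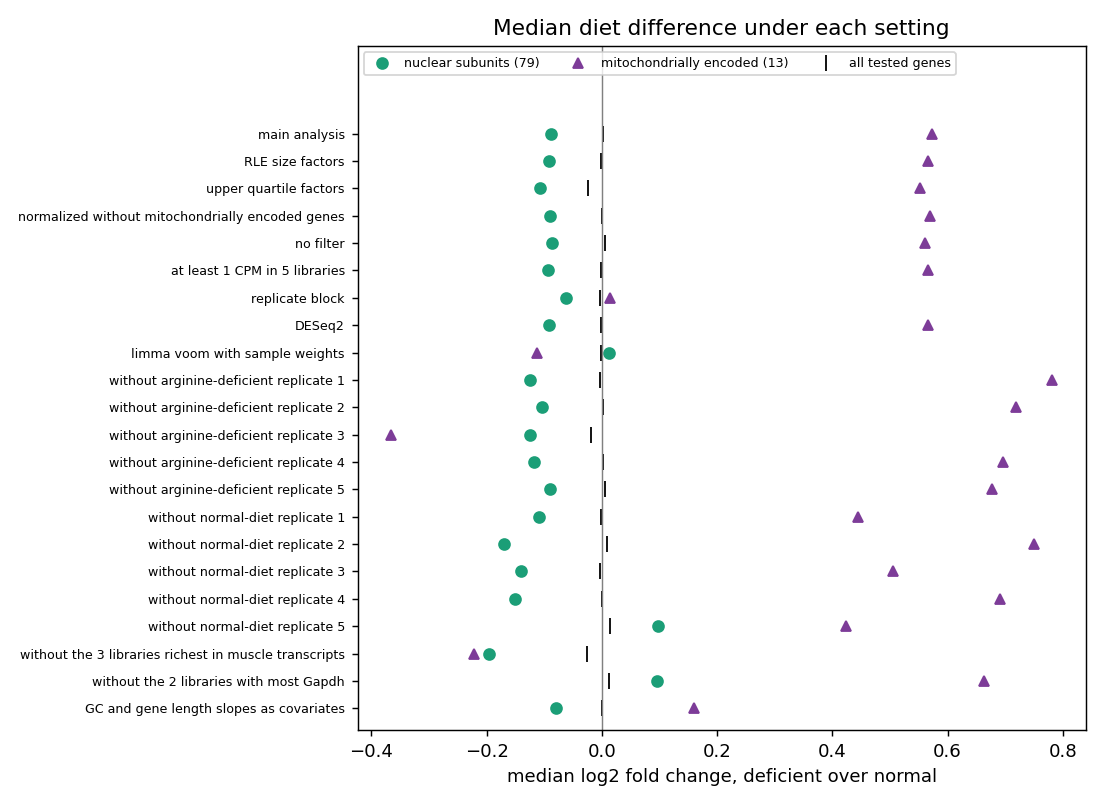
Median log2 fold change (arginine-deficient over normal diet) of 79 nuclear subunits, 13 mitochondrially encoded genes and all tested genes under the main analysis and each alternative. The mitochondrially encoded median lies at 0.57 in the main analysis and at -0.37 without arginine-deficient replicate 3, and the nuclear median at -0.09 and at 0.10 without normal-diet replicate 5.

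The other genes of the pathway were read from the same fit. In either direction, 0 passed the adjusted threshold in any list by edgeR, DESeq2 or limma voom. Over all tested genes these called 0.0541%, 1.01% and 2.88%. By edgeR the only genes of these lists at an unadjusted p under 0.05 were Nubpl, Polg2, Pprc1 and Mrps18b, described here. In the same order they made up 2.86%, 5.26%, 12.5% and 1.39% of their lists, beside 6.74% of all tested genes. The diets did not overlap for Nubpl and Polg2, the only such genes of these lists (1.65% of all tested genes). Of 35 tested assembly factors outside the symbol rule 12 were on the positive side (median -0.09), with Nubpl, which inserts iron-sulfur clusters into complex I, at -0.39 ± 0.14 (SE, edgeR adjusted p = 0.574). Of 19 genes of mitochondrial transcription and replication 12 were positive (median 0.03), and Polg2, the accessory subunit of the mitochondrial DNA polymerase, had -0.41 ± 0.16 (SE, edgeR adjusted p = 0.651). Of 8 regulators of mitochondrial biogenesis 4 were positive (median -0.01), among them Pprc1, a coactivator related to PGC-1alpha, with 0.41 ± 0.14 (SE, edgeR adjusted p = 0.549). Of 72 genes of the mitochondrial ribosome 34 were positive (median -0.02), and Mrps18b had 0.30 ± 0.12. The tricarboxylic acid cycle had 9 of 16 positive (median 0.03) and the carriers with coenzyme Q synthesis and cytochrome c 13 of 20 (median 0.04). In the last list Coq8a, a kinase-like protein of coenzyme Q synthesis, had a mean ± SD of 10.5 ± 10.6 CPM over the arginine-deficient libraries and 4.70 ± 1.40 CPM over those of the normal diet, with a fold change of 1.17 ± 0.61 (SE, edgeR adjusted p = 0.809). It was at 25.9 and 17.3 CPM in arginine-deficient replicates 3 and 4, the libraries richest in muscle, and at 2.38 to 6.23 CPM in the other 8; the part of muscle in this value was not tested.

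Nuclear respiratory genes are known for promoters that bind NRF1, GABPA (an ETS factor), YY1 and Sp1. Windows of 300 bases, from 250 before to 50 after the RefSeq start on GRCm38.p6, were at hand for 74 of the 94 nuclear symbols (80 windows), and both strands were searched for exact matches. The NRF1 letters GCGCATGCG were in 10 of 80 windows (12.5%, against 1.75% of all 32851 windows) and the YY1 letters AAGATGGCG in 8 (10%, against 1.40%). The ETS letters CCGGAAGT were in 5 (6.25%, against 3.89%) and the Sp1 letters GGGCGG in 34 (42.5%, against 35.7%). None of the 4 strings contains another. A match is a run of letters and not a site shown to be bound, and the data hold no binding measurement. The stretches below show 2 matches to the NRF1 letters, 1 to the ETS and 1 to the YY1 letters, 100 bases each in the direction of transcription with the match in capitals. Matches to the Sp1 letters, such as that in the Cox6a1 stretch, are left in lower case; the NRF1 matches shown lie on both strands, shifted by 1 base. They are Cox6a1 (chr5:115349059-115349158, minus strand, NRF1 letters), Ndufaf4 (chr4:24897883-24897982, plus strand, NRF1 letters), Uqcrh (chr4:116075071-116075170, minus strand, ETS letters on the opposite strand) and Atp5j (chr16:84834977-84835076, minus strand, YY1 letters). The stretches begin 200 bases before the start for Cox6a1 and Ndufaf4 and 100 bases before it for Uqcrh and Atp5j.
Cox6a1: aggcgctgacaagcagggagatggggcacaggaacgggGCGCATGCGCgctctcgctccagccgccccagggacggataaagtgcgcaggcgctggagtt
Ndufaf4: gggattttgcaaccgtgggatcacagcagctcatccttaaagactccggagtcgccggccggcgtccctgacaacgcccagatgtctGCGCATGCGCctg
Uqcrh: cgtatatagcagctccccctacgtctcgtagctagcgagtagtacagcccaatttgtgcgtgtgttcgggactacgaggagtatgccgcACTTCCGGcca
Atp5j: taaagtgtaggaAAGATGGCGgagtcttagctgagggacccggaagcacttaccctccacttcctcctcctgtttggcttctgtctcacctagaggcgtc
The 4 genes differed in their values: in normal-diet replicate 5, Cox6a1 (305 CPM) and Uqcrh (145 CPM) were at their highest, Atp5j at 87.7 CPM was below its 104 CPM in arginine-deficient replicate 3, and Ndufaf4 at 17.9 CPM was at its lowest.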

How the data were processed

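The values deposited by the authors were unnormalized whole-number counts per gene, 1 column per library. FastQC, STAR, featureCounts and the build mm10 are named, per the submitters' processing notes; their versions, settings and strand were not given in the sources used here. TRIzol extraction and Illumina sequencing are stated, per the labels' protocols. Arg and Control in the titles were taken for the diets of the design text, which speaks of mice assigned to each diet, so libraries were taken as separate animals. P-values measure only the spread between these samples.

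Symbols and positions came from GENCODE M21 (mm10): 21379 identifiers matched exactly, 437 matched apart from the version, and 33 had no symbol. Where the authors' counting left out reads that fall on 2 genes, overlapping genes lose counts; the settings are unknown. The test was edgeR 4.0.16 (R 4.3.3) glmQLFit and glmQLFTest with TMM factors and filterByExpr (minimum count 10, minimum total 15), with diet as the only term; 12929 genes holding 99.9% of counts were kept and the threshold was an adjusted p of 0.05. The biological coefficient of variation was 26.5%. CPM used the TMM-scaled totals. Shares of counts used the raw totals. Between any 2 libraries the chi-square over genes was at least 14.2 per degree of freedom, so none was a copy of another. The edgeR step was tested on simulated data.

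Members, lists and the library subsets left out were chosen with earlier results of these data known. The text names all 13 mitochondrially encoded members, the 2 members with the smallest p in each direction of each nuclear group, the tissue-restricted forms of complex IV with their common counterparts, and 1 or 2 genes of smallest p per further list. Of the members this rule takes, 1 is not reported here. Atp5b and Atp5j were added after their values were seen. Alternatives were other size factors, normalization without the mitochondrially encoded genes, no or a stricter filter (1 CPM in 5 libraries), DESeq2 1.42.0, sample-weighted voom (limma 3.58.1), a replicate block, leaving out each library, the 3 libraries richest in muscle left out, GC and gene length slopes as covariates, and the longest transcript as length. Leaving out the 2 libraries with most Gapdh was chosen after seeing the data. A floor of 3 counts is 0.0951 to 0.25 CPM per library and covers counting error only.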

Additional observations from a re-analysis of the deposited data

Results flagged for a closer look

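The values listed here were those where 1 library of a diet stood apart from the other 4 (gap over range above 0.71, Dixon's 95% value for 5 samples). Chance alone flags about 1 in 20 groups, and 25 of the 96 groups examined were flagged; they are not independent, since they come from the same 10 libraries. Arginine-deficient replicate 3 accounts for 13 of them. In it the mitochondrially encoded messages took 9.97% of counts, with mt-Nd1 at 9675, mt-Nd2 at 7685, mt-Co1 at 31917, mt-Atp6 at 6979, mt-Co3 at 5721, mt-Nd4l at 757, mt-Nd4 at 8906, mt-Nd5 at 9802, mt-Nd6 at 2233 and mt-Cytb at 15252 CPM. The nuclear members Atp5f1, at 269 CPM, and Ndufv2, at 119 CPM, stood apart in the same library.

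The other 12 were in normal-diet replicate 5. Its nuclear subunits took 0.929% of counts, where the next library of the diet had 0.653%. In complex IV, Cox5b was at 54.8, Cox6a1 at 305, Cox6b1 at 217, Cox7a2 at 113, Cox7b at 146 and Ndufa4 at 101 CPM. In complex III, Uqcr10 was at 78.7 and Uqcrb at 34.7 CPM, and in complex V Atp5e was at 134 and Atp5j2 at 178 CPM. Of complex I, Ndufb3 was at 62.3 CPM.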

How the results depend on the processing

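No member passed the adjusted threshold under any alternative run. The count of all genes past it, 7 in the main analysis, was 130 with DESeq2, 373 with limma voom and sample weights, 68 with the GC and gene length slopes, 18 without the 3 muscle-rich libraries, 0 without the 2 Gapdh-rich libraries (edgeR; 6.98% of genes at an unadjusted p under 0.05) and 0 to 16 with 1 library left out. It was 2 when arginine-deficient replicates 1, 2 and 5 and normal-diet replicate 2 were each left out, 0 without normal-diet replicate 1 or 3 (6.0% and 4.37% of genes at an unadjusted p under 0.05), 15 without normal-diet replicate 5 and 16 without arginine-deficient replicate 3. Replicate numbers did not pair the samples: same-numbered deviations correlated at 0.127, -0.349, -0.00608, 0.127 and 0.183, and 1 of 10 libraries correlated best with its own number. A replicate block gave 1 gene and a mitochondrially encoded median of 0.01.

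A fold change smaller than its standard error in both fits was taken to have no direction, so its change of sign is not counted as a turn. By that rule 43 values of single members turned and 923 did not. The cause was not tested. With the replicate block, mt-Nd2 was -0.0242 and mt-Nd6 -0.0528. With voom weights, Ndufs7 was 0.0222, mt-Nd1 -0.37, mt-Nd2 -0.189, mt-Co1 -0.213, mt-Nd4 -0.0636 and mt-Nd6 -0.141. Without the 3 muscle-rich libraries, Atp5f1 was -0.123, Ndufv2 -0.159, mt-Nd1 -0.537, mt-Nd2 -0.457, mt-Atp8 -0.756, mt-Nd4l -0.51, mt-Nd4 -0.221, mt-Nd5 -0.212 and mt-Nd6 -0.363. Without the 2 Gapdh-rich libraries, Atp5e was 0.096, Sdhb 0.123, Ndufa4 0.149, Ndufs7 0.0792 and Uqcr10 0.0386.

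With 1 library left out in turn, values ran from -0.49 to 0.108 for Atp5e, -0.115 to 0.124 for Atp5f1, -0.125 to 0.119 for Sdhb, -0.257 to 0.023 for Atp5j2, -0.125 to 0.145 for Ndufa4, -0.448 to 0.00922 for Cox7a2, -0.326 to 0.0309 for Ndufs7, -0.475 to 0.0425 for Uqcr10 and -0.152 to 0.0735 for Ndufv2. For the mitochondrially encoded genes they ran from -0.554 to 0.843 (mt-Nd1), -0.545 to 1.03 (mt-Nd2), -0.349 to 0.348 (mt-Co1), -0.307 to 0.459 (mt-Co2), -0.0218 to 1.05 (mt-Atp8), -0.461 to 0.622 (mt-Atp6), -0.187 to 0.47 (mt-Co3), -0.588 to 0.737 (mt-Nd4l), -0.393 to 0.844 (mt-Nd4), -0.366 to 0.924 (mt-Nd5), -0.394 to 1.08 (mt-Nd6) and -0.136 to 0.769 (mt-Cytb). The group medians with other size factors, filters or DESeq2 stayed between -0.11 and -0.09 for nuclear subunits and between 0.55 and 0.57 for mitochondrially encoded genes, but with voom weights they were 0.01 and -0.11. They were -0.20 and -0.22 without the 3 muscle-rich and 0.10 and 0.66 without the 2 Gapdh-rich libraries. The median level of the nuclear members, 28.7 CPM per kb of exon, was 39.5 with the longest transcript as length. Members under a few CPM, such as Cox4i2 and Cox7a1, rest on few counts.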
